A study of Mus musculus with 8 samples.

Results

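The nuclear genes that copy and transcribe mitochondrial DNA were followed in 8 RNA-seq libraries of mouse heart. They were listed by name as Tfam, Tfb1m, Tfb2m, Polrmt, Polg, Polg2, Ssbp1, Nrf1 and Gabpa, 9 of the 16994 genes in the deposited table. All 9 had a mean CPM of at least 1 and stayed among the 12999 genes tested. They are set against the 13 protein genes carried by mitochondrial DNA itself.

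The study compared wild-type (WT) male mice with TIGAR whole-body knockout (TKO) males, which lack the metabolic regulator TIGAR in every tissue, after permanent ligation of the left anterior descending coronary artery at 16 weeks of age. Heart function was reported 4 weeks after ligation, and the time at which tissue was taken for RNA is not given in the sources used here. The infarct zone, the border zone beside it and the remote zone were sequenced apart. A left ventricle library of each genotype, labelled only as left ventricle heart tissue, completed the 4 regions. Whether those mice had sham surgery or none is not given in the sources used here. RNA of 3 mice was pooled for each infarct zone library, so that each of the 8 groups was 1 library and no spread between mice was measured. How the whole-body knockout allele was made is not given in the sources used here.

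Mitochondrial DNA is transcribed by a single-subunit polymerase, POLRMT, which starts at its promoters with TFAM, a protein that also packages the DNA, and TFB2M, which melts the promoter. Polymerase gamma, made of the catalytic POLG and the accessory POLG2, copies the DNA while the single-strand binding protein SSBP1 covers the exposed strand. NRF1 (nuclear respiratory factor 1, distinct from the stress factors Nfe2l1 and Nfe2l2) and GABPA, the DNA-binding subunit of the factor also called NRF2, are nuclear factors known to drive genes of this machinery, and the heart is among the tissues richest in mitochondria.

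The promoters are shown because these 2 nuclear factors are themselves among the 9 genes. RefSeq promoters of build GRCm38.p6, reaching from 250 bases before to 50 bases after the annotated start, were matched for all 9 genes, with a second promoter for Nrf1. They were searched on both strands for CCGGAAG, a strict form of the letters bound by ETS factors such as GABPA. They were likewise searched for GCGCANGCG, a strict form of the NRF1 motif. The ETS letters stood in the promoters of 6 of the 9 genes and in 8.86% of the 32851 promoters of the reference. The NRF1 letters stood in those of Tfb2m and Polrmt, and in 6.25% of all promoters. Among promoters of the genes tested in heart, the shares were 16.4% and 12.5%. The Tfam promoter (chr10:71237995-71238294, minus strand) held the ETS letters 47 bases before the start, in capitals. The Tfb2m promoter (chr1:179546227-179546526, minus strand) held the NRF1 letters from position 13 of the transcript. The Polrmt promoter (chr10:79746532-79746831, minus strand) held the ETS letters 43 bases before the start and 2 overlapping NRF1 matches across it, and was the only 1 of the 9 with both, against 1.21% of all promoters.
Tfam: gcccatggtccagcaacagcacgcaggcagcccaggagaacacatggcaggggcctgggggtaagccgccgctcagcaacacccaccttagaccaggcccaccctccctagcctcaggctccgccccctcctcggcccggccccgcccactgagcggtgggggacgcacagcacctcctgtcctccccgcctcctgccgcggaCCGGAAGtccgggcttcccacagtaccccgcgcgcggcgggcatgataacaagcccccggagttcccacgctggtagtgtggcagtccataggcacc
Tfb2m: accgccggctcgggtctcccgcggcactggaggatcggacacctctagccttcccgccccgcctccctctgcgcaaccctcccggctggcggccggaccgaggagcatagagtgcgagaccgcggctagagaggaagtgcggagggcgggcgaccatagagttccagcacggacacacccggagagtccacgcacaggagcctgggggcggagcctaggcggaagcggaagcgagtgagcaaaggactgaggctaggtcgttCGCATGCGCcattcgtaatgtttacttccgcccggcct
Polrmt: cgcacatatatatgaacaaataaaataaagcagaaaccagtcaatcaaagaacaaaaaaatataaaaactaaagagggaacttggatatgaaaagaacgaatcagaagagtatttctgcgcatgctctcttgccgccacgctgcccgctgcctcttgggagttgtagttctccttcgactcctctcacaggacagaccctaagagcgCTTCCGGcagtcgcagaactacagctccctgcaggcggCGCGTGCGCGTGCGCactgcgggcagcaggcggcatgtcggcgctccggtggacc

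In the other 4 promoters with the ETS letters, those of Polg, Polg2, Ssbp1 and Gabpa, the match lay between 93 and 29 bases before the start. It is given with 20 bases on each side, read along the gene's strand, to show that both orientations of the letters occurred. The stretches lie at chr7:79466285-79466331 (Polg, minus strand), chr11:106779540-106779586 (Polg2, minus strand), chr6:40471401-40471447 (Ssbp1, plus strand) and chr16:84835011-84835057 (Gabpa, plus strand).
Polg: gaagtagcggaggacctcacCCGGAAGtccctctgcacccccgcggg
Polg2: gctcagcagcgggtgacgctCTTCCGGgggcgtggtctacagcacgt
Ssbp1: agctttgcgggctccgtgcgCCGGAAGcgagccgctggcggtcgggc
Gabpa: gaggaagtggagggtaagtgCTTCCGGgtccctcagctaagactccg
Neither set of letters was found in the promoter of Tfb1m or in either promoter of Nrf1. A match describes these exact letters only. Other forms of either motif were not searched, and binding was not measured.

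The libraries held between 27429240 and 33799249 counts. Tigar had 1066 to 2215 counts in the 4 WT libraries and 51 to 87 in the 4 TKO libraries. Levels are given below in CPM (counts-per-million of a library) scaled by TMM, which sets libraries against each other so that most genes do not change. The TMM factor was 1.54 in the WT infarct zone and 1.26 in the TKO infarct zone, against 0.866 to 0.956 in the other 6 libraries. The infarct zone thus carried the largest scaling in the series, and results that turn with it are named as such.

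Among the transcription genes, Tfb2m had the widest range of the 9. Its level was 85.3 CPM for the WT left ventricle, 76.5 for the border zone, 77.5 for the remote zone and 30.5 for the infarct zone. In TKO hearts the corresponding levels were 86.3, 80.8, 82.5 and 55.4. Both infarct zone libraries lay below the other 6, and they lay further apart from each other than any other pair of the same region.

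Tfam read 39.7 CPM for the WT left ventricle, 37.8 for the border zone, 38.2 for the remote zone and 21.3 for the infarct zone. In TKO hearts it read 48.1, 41.6, 41.8 and 26.0. The infarct zone was the lowest region in both genotypes, and the TKO library stood above its WT partner in all 4 regions.

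Polrmt, the polymerase itself, read 27.9, 21.2, 24.6 and 14.6 CPM in the WT left ventricle, border, remote and infarct zones. The TKO libraries read 31.6, 29.0, 31.6 and 19.9. Here too each TKO library was above its WT partner, and the TKO infarct zone came close to the WT border zone. Tfb1m, a methyltransferase of mitochondrial ribosomal RNA related to TFB2M, was a low gene at 7.77, 5.45, 6.28 and 3.52 CPM in WT and 8.76, 6.44, 6.88 and 4.78 in TKO. Its order of regions was the same in both genotypes, from the left ventricle down to the remote, border and infarct zones.

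Among the replication genes, Polg read 70.1, 57.4, 52.9 and 46.3 CPM in the WT left ventricle, border, remote and infarct zones and 71.4, 67.0, 66.2 and 59.0 in TKO. Its infarct zone libraries were the lowest of their genotype, but the TKO infarct zone lay above the WT border and remote zones. Ssbp1 read 28.3, 29.1, 31.3 and 18.5 in WT and 32.2, 29.5, 30.8 and 22.8 in TKO, with both infarct zone libraries below the rest.

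Polg2 went another way. It read 4.60, 3.47, 3.78 and 5.70 CPM in the WT left ventricle, border, remote and infarct zones, the infarct zone being the highest, and 4.32, 4.35, 4.35 and 4.08 in TKO, where the infarct zone was the lowest of 4 nearly equal values. These rest on 107 to 241 counts a library. Polg2 shares 132 exonic bases with Milr1 on the opposite strand, a gene with 200 counts in the WT infarct zone, 116 in the TKO infarct zone and 16 to 59 elsewhere, and whether the counting used strand is not given in the sources used here.

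Of the nuclear factors, Nrf1 was the only member with both infarct zone libraries above the other 6. It read 13.5, 11.5, 11.0 and 14.2 CPM in the WT left ventricle, border, remote and infarct zones and 12.4, 11.2, 11.1 and 15.2 in TKO. Gabpa read 56.3, 49.98, 50.5 and 35.2 in WT and 53.4, 48.7, 50.9 and 39.6 in TKO, with both infarct zone libraries lowest. Gabpa shares 397 exonic bases with Atp5j on the opposite strand, a gene of 9039 counts in the WT infarct zone, 11472 in the TKO infarct zone and 15605 to 20160 elsewhere, against 1383 to 1542 for Gabpa. Polg likewise shares 921 with Fanci (23 to 98 counts) and Tfb1m 142 with Tiam2 (53 to 246 counts), and the part of these neighbours was not tested. The ratio of Nrf1 to Gabpa counts, which no scaling can change, was 0.217 to 0.240 in the 6 other libraries and 0.403 and 0.383 in the WT and TKO infarct zones.

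**Figure D1:**
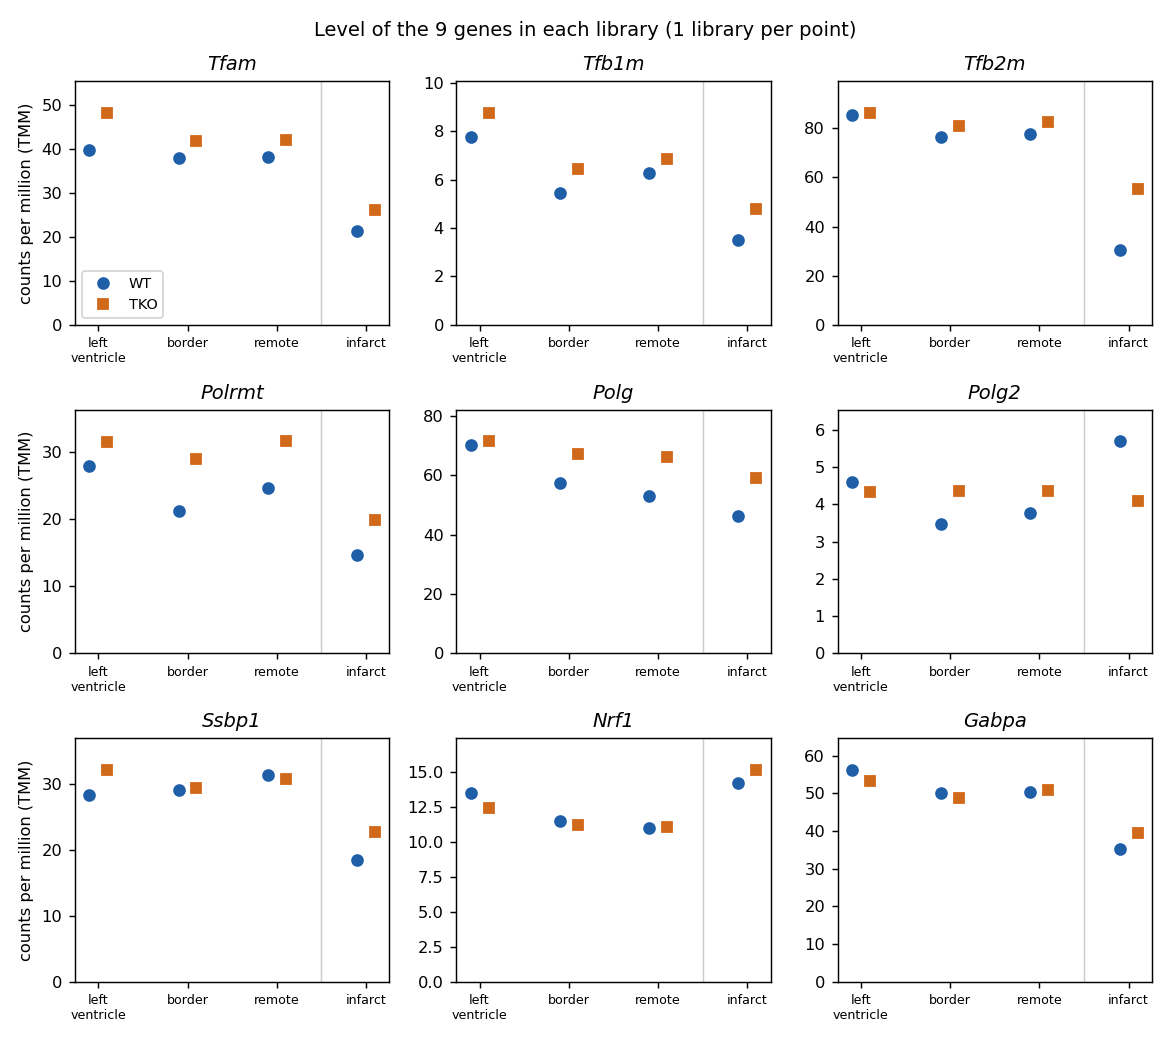
Each panel plots 1 gene, with the region on the x axis and the level in CPM (TMM scaling, axis from 0) on the y axis; circles are WT and squares TKO libraries, 1 library per point with no error bar. The infarct zone points, right of the grey line, both lie below all 6 other points for 6 genes and above them for Nrf1, while those of Polg are the lowest of their own genotype only and those of Polg2 differ in direction between genotypes.

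In the infarct zone, 7 of the 9 genes fell and Nrf1 rose against the mean of the other 3 regions. With genotype as a block and the 2 genotypes standing in for replicates, edgeR's quasi-likelihood test called 29.3% of all tested genes lower and 30.4% higher in this comparison at an adjusted p of at most 0.05. The log2 fold was -0.96 ± 0.19 (SE) for Tfb2m (adjusted p = 0.00512), -0.80 ± 0.08 for Tfam (adjusted p = 0.000625) and -0.74 ± 0.14 for Tfb1m (adjusted p = 0.00471). It was -0.69 ± 0.09 for Polrmt (adjusted p = 0.00130), -0.55 ± 0.09 for Ssbp1 (adjusted p = 0.00301) and -0.46 ± 0.08 for Gabpa (adjusted p = 0.00387). Polg fell by less, at -0.29 ± 0.09 (adjusted p = 0.0370). Nrf1 was higher by 0.32 ± 0.09 (adjusted p = 0.0185), and Polg2 stood at 0.24 ± 0.20 without a call (adjusted p = 0.338). Both infarct zone libraries lay below all 6 others for 6 genes, as for 31.1% of all genes tested, and above them for Nrf1, as for 32.9%. The median log2 fold was -0.55 over the 9 genes and 0.02 over all genes tested. The p-values describe regions and genotypes, not mice. Without the WT infarct zone library, Tfb1m (adjusted p = 0.0615), Gabpa (adjusted p = 0.0515), Polg (adjusted p = 0.272) and Nrf1 (adjusted p = 0.0610) lost their calls. Without the TKO infarct zone library, Polg (adjusted p = 0.0655) and Nrf1 (adjusted p = 0.160) lost theirs. Both also lost them without the WT border zone (adjusted p = 0.0943 and 0.0566), the WT remote zone (adjusted p = 0.0626 and 0.0505) or the TKO border zone (adjusted p = 0.0941 and 0.0627), and Polg without the TKO remote zone (adjusted p = 0.0902).

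These directions are relative to the median gene. Scaled by total counts alone, the median of all genes tested was 0.66 higher (log2) in the infarct zone, and of all genes 8517 were called higher and 1110 lower, against 3953 and 3807 with TMM. None of the 9 genes was then called lower, and Polg, Polg2 and Nrf1 were called higher. Tfam stood at -0.17, Tfb2m at -0.33, Polrmt at -0.05, Ssbp1 at 0.08, Gabpa at 0.17 and Polg at 0.35. Set against the median gene of the same scaling, 7 genes lay below it and Polg2 and Nrf1 above it in both cases. Relative to the median gene, Tfb2m stood at -0.98 with TMM and -0.996 with total counts, and Tfam at -0.83 with either. A change of scaling shifts all genes by a like amount, and subtracting the median takes that shift out. The agreement between the scalings follows from this and is no check of the result.

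**Figure D2:**
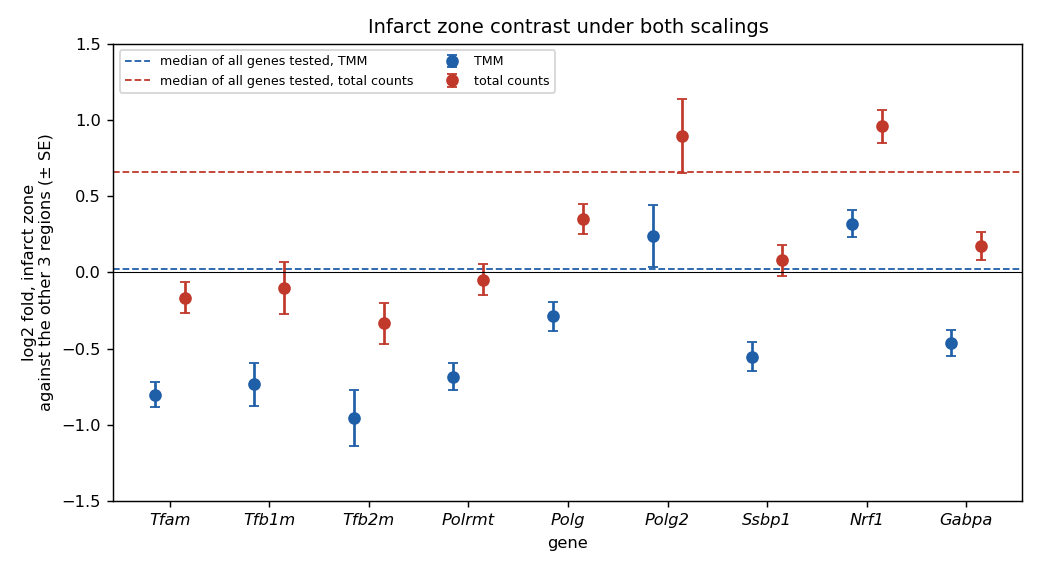
The y axis is the log2 fold of the infarct zone against the mean of the other 3 regions and the x axis the gene; points are fitted values and bars their standard errors, in blue with TMM and in red with total counts, with dashed lines at the median of all genes tested. Every gene moves up by a like amount under total counts, as does the dashed line, so the same 7 genes stay below the line of their own colour.

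Markers of several cell types moved with the same libraries, but not those of all. All 10 cardiomyocyte markers were called lower in the infarct zone, with a summed level of 9693 CPM in the WT and 19909 in the TKO infarct zone against 32202 to 43554 elsewhere. All 7 fibroblast markers were called higher, at 8235 and 6830 against 866 to 2981, and so were all 7 leukocyte markers, at 1283 and 959 against 240 to 468. The endothelial sum was 514 and 554 against 537 to 610, with 1 of 5 markers called higher and 2 lower. For smooth muscle and pericytes it was 904 and 749 against 638 to 711, with 3 of 4 called higher and 1 lower. Of 4 proliferation markers 3 were called higher and 0 lower. No marker was at 0 in any library, and the lowest leukocyte marker had 155 counts. In bulk tissue, fewer cells of a type and less RNA per cell cannot be told apart, and the part of the markers in these results was not tested. From the left ventricle to the infarct zone, the cardiomyocyte sum changed 0.224-fold in WT and 0.457-fold in TKO, while the median of the 9 genes changed 0.626-fold and 0.708-fold.

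Between genotypes, no member passed the test across regions. With region as a block and the 4 regions standing in for replicates, edgeR called 0.0769% of all genes tested higher and 0.0615% lower in TKO, 18 genes in all, with 2109 at an unadjusted p under 0.05. None of the 9 was called, and 3 were at an unadjusted p under 0.05. The log2 difference of Polrmt was 0.36 ± 0.07 (SE; adjusted p = 0.173), that of Tfam 0.21 ± 0.07 (adjusted p = 0.240) and that of Polg 0.23 ± 0.08 (adjusted p = 0.262). DESeq2 called 1 of the 9, Polrmt, higher at an adjusted p of 0.0465 among 342 genes. The median over the 9 genes was 0.21, and over all genes tested 0.00.

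The TKO library was above the WT library in all 4 regions for Tfam, Tfb1m, Tfb2m, Polrmt and Polg, 5 of the 9 genes, as it was for 13.2% of all genes tested. It was below in all 4 regions for none of the 9, as it was for 13.5% of all. Under total counts, 3 of the 9 were above and 2 below in all 4 regions. With that scaling the median genotype difference of all genes tested was -0.11 (log2), and the share of all genes was not computed. These counts under total counts are therefore no result about the 9 genes. The marker sums differed between the same libraries. The TKO/WT ratio of the cardiomyocyte sum was 1.01 for the left ventricle, 1.202 for the border zone, 1.12 for the remote zone and 2.05 for the infarct zone. It was 1.12, 0.536, 0.643 and 0.829 for the fibroblast sum and 0.884, 0.702, 0.656 and 0.748 for the leukocyte sum in the same order. Of these markers, 1 of the 7 leukocyte genes was called between genotypes and none of the others, and their part in the genotype values was not tested.

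Region by region, each TKO/WT ratio sets 1 library against 1 other, and its exact (Clopper-Pearson) 95% interval covers counting error only. For Polrmt the ratio was 1.13 (1.03 to 1.25) for the left ventricle, 1.37 (1.23 to 1.52) for the border zone, 1.28 (1.17 to 1.42) for the remote zone and 1.36 (1.22 to 1.52) for the infarct zone. For Tfam it was 1.21 (1.12 to 1.31), 1.10 (1.01 to 1.19), 1.10 (1.01 to 1.19) and 1.22 (1.11 to 1.34) in the same order. With TMM, these were the 2 members whose interval lay above 1 in every region. Nrf1, at 0.918 to 1.07, was the member whose interval held 1 in every region with that scaling. The shares of all genes tested with such intervals in every region were not computed. These counts are therefore no result about the members as a group. Under total counts the infarct zone ratio was 0.994 for Tfam and 0.872 for Nrf1.

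The infarct zone had the most members apart from 1. There, 7 of the 9 intervals lay above 1, as did those of 32.5% of all genes tested, and that of Polg2, at 0.717 (0.580 to 0.884), lay below it, as did those of 28.8%. In the left ventricle, border and remote zones 3, 3 and 4 of the 9 intervals lay above 1 and none below, against 26.1%, 24.5% and 20.5% of all genes above and 24.5%, 23.9% and 21.9% below. The median TKO/WT ratio of the 9 genes was 1.23 here, 1.10 for both the border and remote zones and 1.02 for the left ventricle, with that of all genes between 0.992 and 1.01. Under total counts the infarct zone median was 1.005, with that of all genes at 0.819.

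**Figure D3:**
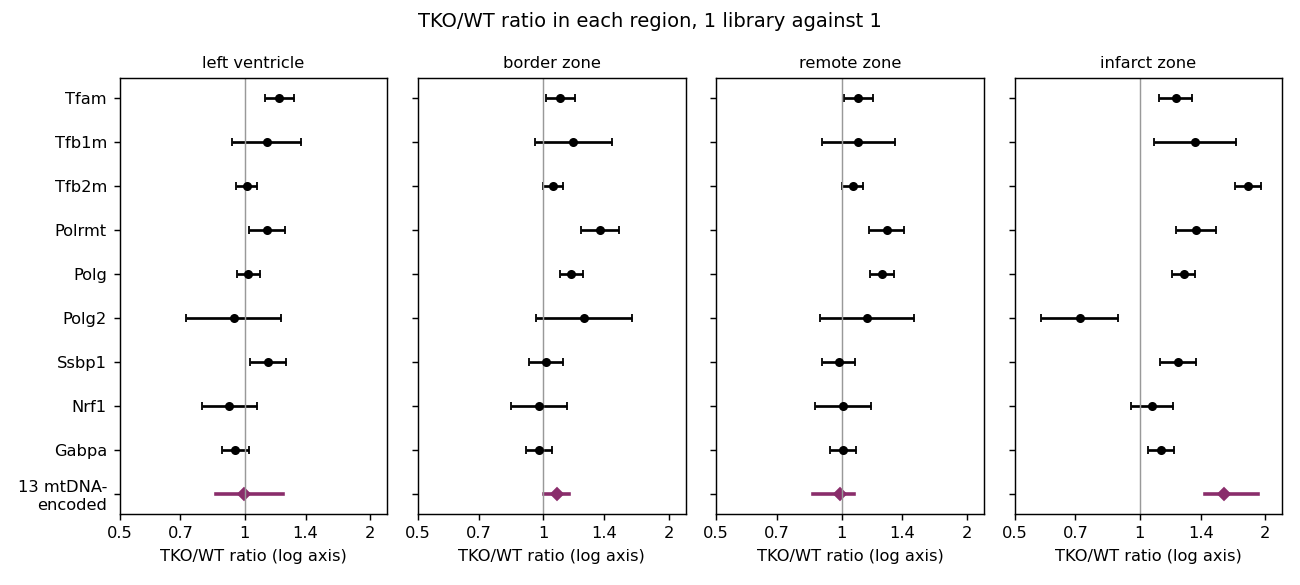
Each panel is 1 region and the x axis the TKO/WT ratio of TMM-scaled counts on a log axis; black points are the 9 genes with exact 95% intervals for counting error, and the purple diamond and line are the median and range of the 13 mitochondrial DNA-encoded genes. In the infarct zone Tfb2m at 1.82 lies within the purple range, Polg2 at 0.717 lies left of 1, and of the other regions the left ventricle has 3 intervals right of 1, the border zone 3 and the remote zone 4.

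Tfb2m was the member whose genotype difference varied most by region. Its TKO/WT ratio was 1.82 (1.69 to 1.95) in the infarct zone, and 1.01, 1.06 and 1.06 in the left ventricle, border and remote zones. The 13 mitochondrial DNA-encoded genes had ratios of 1.43 to 1.92 in the infarct zone, among them 1.76 for COX1, 1.57 for CYTB, 1.52 for ATP6, 1.67 for ND1 and 1.54 for ND6. The difference between the infarct zone and the other regions was tested with an added term for the TKO infarct zone library, which rests on 1 library per genotype. By edgeR's test it was 0.80 ± 0.14 (log2, SE) for Tfb2m, with an adjusted p of 0.410. No member was called, with 0.0% of all genes called higher and 0.00769% lower, 1 gene in all and 1018 at an unadjusted p under 0.05. Of those 1018, 931 were higher and 87 lower. DESeq2 called Tfb2m at an adjusted p of 0.00956 among 288 genes. When the WT or the TKO left ventricle library was left out, that region no longer bore on the term, and edgeR called Tfb2m at an adjusted p of 0.00489 and 0.00492, among 911 and 926 genes. These fits have fewer residual degrees of freedom than that of all 8 libraries, and their spread comes from the border and remote zones only. With 2 residual degrees of freedom the fit of all 8 libraries can miss large differences, and a gene without a call is not shown to be alike. For the other 8 members the edgeR adjusted p was at least 0.857, and the largest shift the other way was that of Polg2, at -0.63 ± 0.36.

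Mitochondrial DNA-encoded transcripts had a larger median fall than the 9 factors. All 13 were called lower in the infarct zone, at -0.84 to -1.40 with a median of -1.30 (log2), and with COX1 at -1.33, CYTB at -1.30, ATP6 at -1.26, ND1 at -1.29 and ND6 at -1.29. Under total counts 12 of the 13 were called lower, with a median of -0.67. Their share of a library's counts was 20.7% for the WT and 27.9% for the TKO infarct zone, and 36.6% to 39.3% elsewhere. The 9 genes summed to between 8032 and 9820 counts a library.

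The counts of the 13 genes per count of a factor do not depend on the scaling. Per count of Tfam they were 10909, 10504 and 11408 in the WT left ventricle, border and remote zones and 6295 in the WT infarct zone. In TKO they were 8782, 10440, 10357 and 8525. The WT infarct zone was thus the low library by a wide gap, while the TKO infarct zone was close to the TKO left ventricle. Per count of Polrmt the values were 15549, 18784, 17698 and 9203 in WT and 13376, 15010, 13708 and 11155 in TKO.

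For all 9 factors both infarct zone libraries were below the other 6 in this measure, as they were when any of 86.8% of the genes tested was put in the denominator. Between the left ventricle and the infarct zone it changed 0.250-fold for Polg2 to 0.865-fold for Tfb2m in WT, with a median of 0.495. In TKO it changed 0.429-fold for Nrf1 to 0.971-fold for Tfam, with a median of 0.741. Tfb2m was the factor whose level moved most nearly with the mitochondrial transcripts in WT, from 5079 to 4395 of them per count, and in TKO it went from 4898 to 3996.

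Between genotypes, the measure was higher in the TKO infarct zone than in the WT infarct zone for 8 of the 9 factors, with a median ratio of 1.34. With TMM, the median TKO/WT ratio in the infarct zone was 1.59 for the 13 genes and 1.005 for all genes tested. A measure above 1 between genotypes is thus not particular to these factors. Per factor, the ratio was 2.30 for Polg2, 1.54 for Nrf1, 1.47 for Gabpa, 1.35 for Tfam and 1.21 for Polrmt. Tfb2m was the exception at 0.909. The share of all genes tested with a measure above or below 1 was not computed. In the left ventricle, border and remote zones the median ratio was 0.957, 0.994 and 0.908. Over the summed counts of the 9 genes it was 1.27 in the infarct zone, and 0.933, 1.003 and 0.903 in the other 3 regions. None of these ratios has a replicate check.

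**Figure D4:**
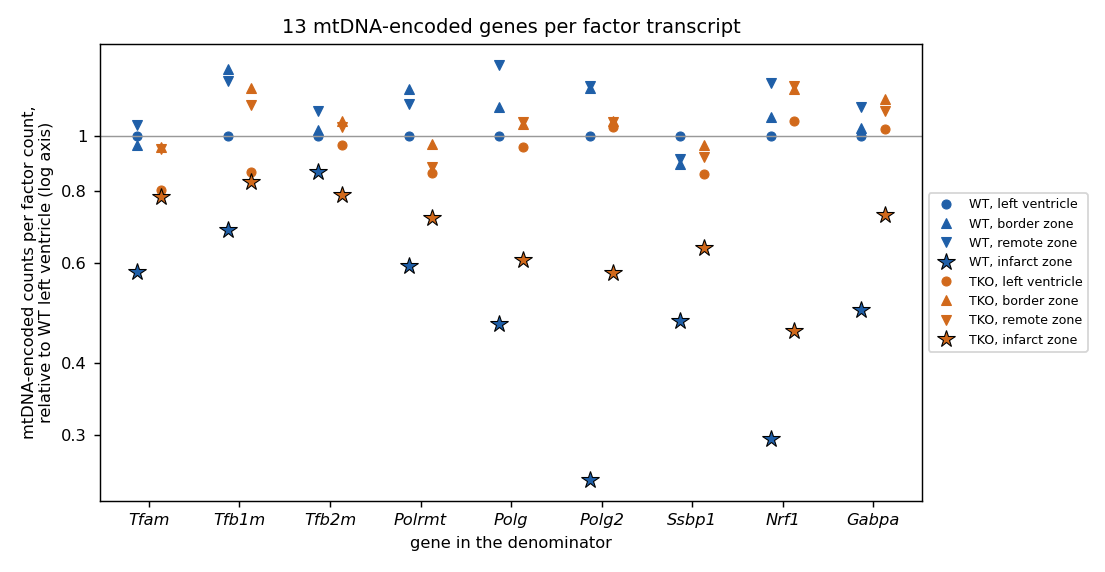
The y axis, on a log scale, is the count of the 13 mitochondrial DNA-encoded genes per count of the factor named on the x axis, relative to the WT left ventricle; blue is WT and orange TKO, 1 library per symbol, with stars for the infarct zone. Stars lie below the other symbols for every factor, and the WT star is below the TKO star for each but Tfb2m.

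ND6, the 1 protein gene of the 13 encoded on the other strand of mitochondrial DNA, took 1.69% to 1.97% of their counts in all 8 libraries, with 1.83% in the WT and 1.71% in the TKO infarct zone. Its share in both infarct zone libraries lay within the range of the other 6. Whether the counting used strand is not given, so RNA of the facing strand could count toward ND6, and this was not tested.

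Among the 9 genes themselves, levels per length differed by a wide margin. In CPM per kilobase of the longest annotated coding transcript, Tfb2m was the highest in every library, at 34.9 in the WT left ventricle. That length was 4398 bases for Ssbp1, the longest of 5 coding transcripts, and 7837 for Polg, the longest of 8. Tfb2m had 1, of 2449 bases. Which transcripts these hearts used was not tested, and the order of the 9 genes depends on this choice of length. Gabpa stood at 11.3, Tfam at 9.54, Polg at 8.94, Polrmt at 7.42, Ssbp1 at 6.44, Tfb1m at 5.54, Nrf1 at 3.77 and Polg2 at 3.05 in that library. Over the 8 libraries the ranges of Gabpa (7.06 to 11.3), Tfam (5.12 to 11.5) and Polg (5.91 to 9.11) overlapped, and their order is not firm. On the same scale COX1 stood at 91489 in the WT left ventricle.

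Counts of 1 member per count of another do not depend on the scaling either. The Polg to Polg2 count ratio was 8.13 in the WT infarct zone, 14.4 in the TKO infarct zone and 14.0 to 16.5 elsewhere. Tfb2m per Tfb1m was 8.67 in the WT infarct zone, the lowest of the 8, and 11.6 in the TKO infarct zone. Polrmt per Tfam was 0.684 in the WT infarct zone, inside the 0.559 to 0.756 of the 6 other libraries, and 0.764 in the TKO infarct zone, just above them.

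Likeness of profile was measured as the root mean square difference of log2 level over the 8 libraries, each gene centred on its mean. The closest members were Ssbp1 and Gabpa at 0.101 and Tfb1m and Polrmt at 0.123. The furthest apart were Tfb2m and Polg2 at 0.624. Polg2 and Nrf1 were nearest to each other among the 9, at 0.184. Among all other tested genes, the nearest to Tfam was Nudt13 (0.0435), followed by Tmem14c and Adh5. The nearest to Tfb2m was Dnaja4 (0.0623), to Polrmt AU040320 (0.0512), to Polg P4ha2 (0.0398) and to Ssbp1 Cavin2 (0.0315). Gabpa was nearest to Atp6v1b2 (0.0341), Tfb1m to Mtrr (0.0511), Nrf1 to Fbxo4 (0.0454) and Polg2 to Zfp39 (0.0642). With 8 libraries and infarct zone libraries that differ from the rest in many genes, such neighbours are a description.

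Other genes of mitochondrial DNA upkeep and expression were read from a list of 64, of which 63 were in the table and passed the filter. In the infarct zone 34 of the 63 were called lower and 7 higher, with a median log2 fold of -0.62. Of all genes tested, 29.3% were called lower and 30.4% higher. Under total counts 18 of the 63 were called lower and 23 higher, against 1110 and 8517 of the 12999 genes tested. The median was then 0.01, against the 0.66 of all genes, so the values below are again relative to the median gene. None of the 63 was called between genotypes or for the departure of the infarct zone. The departure stood at 0.86 ± 0.24 (log2, SE) for Lrpprc and 0.80 ± 0.17 for Sucla2, against 0.80 ± 0.14 for Tfb2m. Its median over the 63 was 0.24, and a value like that of Tfb2m was not particular to that gene.

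By role, the RNA processing and decay genes had the most calls, 13 of 17 lower and none higher. Lrpprc, which stabilises mitochondrial messenger RNA, stood at -1.35 ± 0.23 (log2, SE) and Hsd17b10, a subunit of mitochondrial RNase P, at -1.21 ± 0.13. At the other end, Fastkd5 at -0.35 ± 0.15 and the exonuclease gene Rexo2 at 0.00 ± 0.08 were not called. All 3 genes listed under TFAM turnover were called lower, the proteases Lonp1 and Clpp and the chaperone subunit Clpx, at -0.90, -0.95 and -1.24. That name is a list heading, and the turnover of TFAM by any of them was not measured.

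Of 15 replication and repair genes, 6 were called lower and 2 higher. Ung, the uracil glycosylase of base excision repair, stood at -1.35 ± 0.19 and the nuclease Endog at -1.30 ± 0.17. Dna2, a helicase and nuclease that also serves the nucleus, rose by 1.34 ± 0.20 and the primase-polymerase Primpol by 1.04 ± 0.30. The helicase Twnk, partner of polymerase gamma, was lower at -1.06.

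Of 8 nucleotide supply genes, 5 were called lower and 1 higher. The lower calls were Dguok at -0.40, Rrm2b at -0.57 and the succinate-CoA ligase subunits Sucla2, Suclg1 and Suclg2. Much of the count thus comes from subunits of 1 enzyme. Sucla2 and Suclg2 stood at -1.48 ± 0.22 and -1.44 ± 0.18. Samhd1, which breaks down deoxynucleotides and is abundant in leukocytes, rose by 0.83 ± 0.09, and Tk2, the mitochondrial thymidine kinase, stood at -0.14 ± 0.10 without a call. Of 8 transcription and termination genes, 3 were called lower, Mterf2 at -1.27 ± 0.12, Mrpl12 at -1.20 ± 0.16 and the elongation factor Tefm at -1.02. Mterf1a and Mterf1b, near-identical copies of the termination factor gene between which reads may be split, were not called, at 0.13 ± 0.24 and 0.93 ± 0.36.

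The 12 nuclear regulators were divided, with 4 lower and 4 higher. With 29.3% of all genes tested called lower and 30.4% higher, the shares in this group, and the lower calls among the replication and transcription genes, are near the background and are no result about these groups. Esrra, an orphan receptor that drives oxidative genes, stood at -1.19 ± 0.15 and the coactivator gene Ppargc1a at -1.04 ± 0.14. Sp1 rose by 0.59 ± 0.07 and Gabpb2, a partner subunit of GABPA, by 0.56 ± 0.08. Ppargc1a and Nrf1 thus moved in opposite directions against the median gene, and Gabpa and Gabpb2 likewise.

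**Figure D5:**
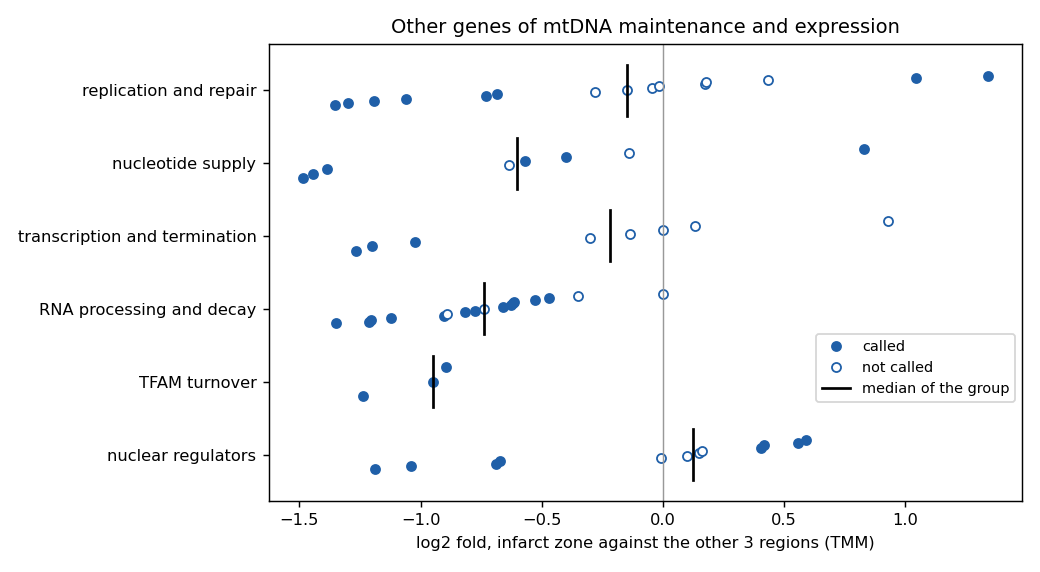
The x axis is the log2 fold of the infarct zone against the other 3 regions (TMM scaling) and each row a role; filled points are genes called by edgeR at an adjusted p of at most 0.05, open points genes not called, and black bars the median of the row. The genes in the row headed TFAM turnover are all filled and left of 0, and the nuclear regulators lie on both sides.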

How the data were processed

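RNA from 8 heart samples, 1 library per genotype and region, was sequenced by the study. Per the labels, the authors trimmed reads with Trim Galore 0.6.5 and quantified transcripts with kallisto 0.46 on mm10, with edgeR 3.34.1 for their tests. The deposited table holds estimated counts per gene, summarised with tximport by the authors. The values used here were whole numbers. Scaling options, strand and annotation release are not given in the sources used here.

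Genes whose mean CPM reached 1 were fitted in edgeR 4.0.16 (R 4.3.3) with TMM factors, genotype and region, leaving 3 residual degrees of freedom, or 2 with the departure term. P-values were Benjamini-Hochberg adjusted over 12999 genes. They measure spread between regions or genotypes, not between animals. DESeq2 1.42.0, other scalings, other filters and leaving out each library were the alternatives. The fits were tested on simulated data. Ratios between libraries carry exact 95% intervals, with no test, and the depth of 27429240 to 33799249 counts sets their width. Gene positions came from GENCODE M21.

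The members and lists were chosen with earlier results of these data known. The named genes were the 9 members, ATP6, COX1, CYTB, ND1 and ND6 with the range of all 13, and, for each role with at least 4 genes, the 2 highest and 2 lowest of the wider list in the infarct zone. The 3 nearest profiles of each member were found, and the nearest is named, with all 3 for Tfam. Twnk, Tefm and the TFAM turnover genes were named after their values were seen. Mpv17 was not analysed here.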

Additional observations from a re-analysis of the deposited data

How the results depend on the processing

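The infarct zone results depended on the scaling. Under total counts, 3 of the 9 genes were called higher and 0 lower, and the log2 fold turned positive for Polg (0.35), Ssbp1 (0.080) and Gabpa (0.17). The median infarct zone to left ventricle ratio became 1.11 in WT and 1.03 in TKO, and the TKO/WT median in the infarct zone 1.005. Of 90 single ratios, 15 crossed 1, and the interval of 8 had excluded 1 with TMM. These were Tfam (0.994) and Gabpa (0.917) for TKO over WT in the infarct zone, and, from left ventricle to infarct zone in WT and TKO, Polg (1.17 and 1.20), Ssbp1 (1.16 and 1.03) and Gabpa (1.11 and 1.08). For TKO over WT, 5 of the 9 genes were then higher in the infarct zone against 8 with TMM, 5 against 7 in the border zone and 6 against 8 in the remote zone. The median of all genes moved from 0.02 to 0.66 for the infarct zone, from 0.00 to -0.11 for genotype, where calls split 12 higher and 44 lower against 10 and 8, and from 0.05 to -0.20 for the departure.

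Genotype calls over all genes went from 18 to 342 with DESeq2, which called 1 member higher, and to 56 with total counts. Departure calls went from 1 to 0 with at least 10 counts in every library and to 288 with DESeq2, which called 1 member higher. In the infarct zone, 0 members were called higher with DESeq2 or without a filter.

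Leaving out each library in turn gave 3 to 72 genotype calls, with 0 members called. The count was 3 without either remote zone library or the TKO infarct zone, 5 without either border zone library, 6 without the WT infarct zone, and 70 and 72 without the TKO and WT left ventricle. Departure calls ranged from 0 to 926, with 0 to 1 members higher, the 1 being Tfb2m without either left ventricle library. Infarct zone calls ranged from 4375, without the WT infarct zone, to 8521. Members called lower ranged from 4, without the WT infarct zone, where Tfb1m, Gabpa and Polg lost the call, to 7, and members called higher from 0 to 1. Polg lost its call without any 1 of the 6 libraries of the infarct, border and remote zones, and Nrf1 without any 1 of 5, all of those but the TKO remote zone. The causes were not tested.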
